A study of Mus musculus with 8 samples.

Results

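The core circadian clock genes of mouse subcutaneous fat are described here in 8 poly(A) RNA libraries, each from its own mouse. The members were chosen by symbol. They are Arntl, Clock and Npas2 of the positive arm, Per1, Per2, Per3, Cry1, Cry2 and Nr1d1 of the negative arm, and the output gene Dbp. All 10 were found among the 18022 genes of the count table, and all 10 passed the filter on low counts that left 14556 genes. The study asks what changes in fat when protein kinase D1, which it calls Pkd1 and whose gene symbol is Prkd1, is deleted in adipocytes. Of the 8 mice, 4 carried the floxed gene without deletion, Pkd1(flox/flox), here labelled WT, and 4 carried the adipocyte deletion, Pkd1adipo delta/delta, here labelled KO. All were C57BL/6J (back-crossed 4x). The sources used here do not state age, sex, feeding, the hour at which tissue was taken or the promoter that drove the deletion. Libraries are called by label and replicate number, WT1 to WT4 and KO1 to KO4.

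The circadian clock is a feedback loop of transcription factors that runs in nearly every cell, fat cells included. ARNTL (also called BMAL1) pairs with CLOCK or its relative NPAS2, binds E-boxes and switches on the Per, Cry and Nr1d1 genes and outputs such as Dbp. PER and CRY proteins then enter the nucleus and block ARNTL and CLOCK, while NR1D1 (REV-ERB alpha) represses Arntl through ROR response elements. Arntl and Npas2 transcripts therefore peak at about the opposite time of day to Dbp and Per transcripts in rodent tissues, and single samples differ in these genes when they are taken at different phases.

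Promoter sequence shows where such elements lie, and 9 of the 10 members had windows in RefSeq's table for GRCm38.p6, which run from 250 bases before to 50 bases after a transcript start. Per2 was not matched. Both strands were searched for the E-box CACGTG, the E-prime box CACGTT, the D-box TTATGTAA or TTACGTAA that DBP and its relatives bind, the ROR element TAGGTCA or TGGGTCA, and the cAMP response element TGACGTCA. Of 32851 windows of 300 bases, 7.15% hold the E-box, 4.68% the E-prime box, 1.06% the D-box, 6.45% the ROR element and 1.79% the cAMP element. Stretches of 250 bases upstream of a start in Per1, Cry1 and Per3, and a site of 30 bases in Arntl, are shown 5′ to 3′, because they hold E-boxes, D-boxes and a ROR element of the loop in genes whose levels are compared here. The capitals mark the E-box in Per1 and Cry1, the D-boxes in Per3 and the ROR element in Arntl.
Per1, chr11:69098699-69098948, plus strand: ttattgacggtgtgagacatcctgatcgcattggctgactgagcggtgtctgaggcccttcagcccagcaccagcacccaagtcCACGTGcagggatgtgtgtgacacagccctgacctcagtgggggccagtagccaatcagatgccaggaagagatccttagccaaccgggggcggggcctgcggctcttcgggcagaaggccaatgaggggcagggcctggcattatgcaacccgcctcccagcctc
Cry1, chr10:85185055-85185304, minus strand: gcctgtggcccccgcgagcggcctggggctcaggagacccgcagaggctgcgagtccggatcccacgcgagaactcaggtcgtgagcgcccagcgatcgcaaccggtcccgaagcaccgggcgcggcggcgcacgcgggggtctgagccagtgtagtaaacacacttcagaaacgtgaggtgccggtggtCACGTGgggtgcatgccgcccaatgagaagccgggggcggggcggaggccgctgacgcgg
Per3, chr4:151044666-151044915, minus strand: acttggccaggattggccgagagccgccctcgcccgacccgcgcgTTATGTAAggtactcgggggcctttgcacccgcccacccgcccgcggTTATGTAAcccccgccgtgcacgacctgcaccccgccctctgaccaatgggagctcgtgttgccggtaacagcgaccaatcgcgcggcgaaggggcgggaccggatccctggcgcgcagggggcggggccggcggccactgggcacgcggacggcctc
Arntl, chr7:113207529-113207558, plus strand: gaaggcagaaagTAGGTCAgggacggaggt
The E-box begins at position -166 in Per1, in 1 of its 2 listed windows, and -60 in Cry1, and the D-boxes of Per3 at -205 and -158, where -1 is the last base before the start. The ROR element of Arntl begins at position 31 after 1 of its 2 listed starts. Cry1, Cry2 and Nr1d1 each hold an E-prime box, and the windows of Clock, Npas2 and Dbp hold none of the 5 elements. A match is a description of letters in these windows and not a measured binding site.

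Libraries held between 2617755 and 2873457 reads over genes. Adipocyte markers, 9 of 9 of which were tested, summed to 94048 to 119723 CPM in the 8 libraries, where CPM is the usual count scaled to library size, here with TMM factors. Most of that sum is Scd1, at 76732 to 103830 CPM. Lep, the gene of leptin, varied 3.42-fold and Cfd, adipsin, 2.94-fold between the lowest and highest library. The targeted gene did not check the labels: Prkd1 had 30.3 ± 3.22 CPM under the label WT and 31.6 ± 4.71 CPM under the label KO (SD, n = 4 each), counted over the whole gene and the whole tissue. All directions given here are therefore between labels. Markers of skeletal muscle, liver and nerve were uneven. The muscle sum, over 22 markers in the table, was highest in KO4 at 4260 CPM, followed by KO1 at 3797 and KO2 at 2388 CPM, with 507 CPM in KO3 and 161 to 686 CPM under the label WT. The sum of liver markers, of which 8 of 8 in the table were tested, was 1542 CPM in WT1, 1350 in WT4, 516 in KO2 and 93.4 to 243.6 CPM in the other 5 libraries. Brain and nerve markers, of which 3 of 5 in the table were tested, summed to 555 CPM in KO1 and 97.3 to 198 CPM elsewhere. Their part in the results was not tested beyond the fits on muscle markers. In bulk tissue, fewer cells of a type and less RNA per cell cannot be told apart.

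Arntl, Npas2, the Period genes and Dbp varied strongly from mouse to mouse within each label. Arntl, the factor no other gene of the loop replaces, stood at 6.97, 25.9, 18.6 and 13.9 CPM in WT1 to WT4. It stood at 7.72, 6.52, 22.0 and 29.6 CPM in KO1 to KO4. WT1, KO1 and KO2 were thus low and the labels overlapped over nearly their whole range. Dbp, the transcription factor that carries the rhythm to D-box genes, had the opposite order, at 114, 39.4, 50.8 and 79.2 CPM in WT1 to WT4. In KO1 to KO4 it had 222, 186, 36.3 and 48.8 CPM. KO1, KO2 and WT1 were the highest libraries for Dbp and the lowest for Arntl.

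**Figure D1:**
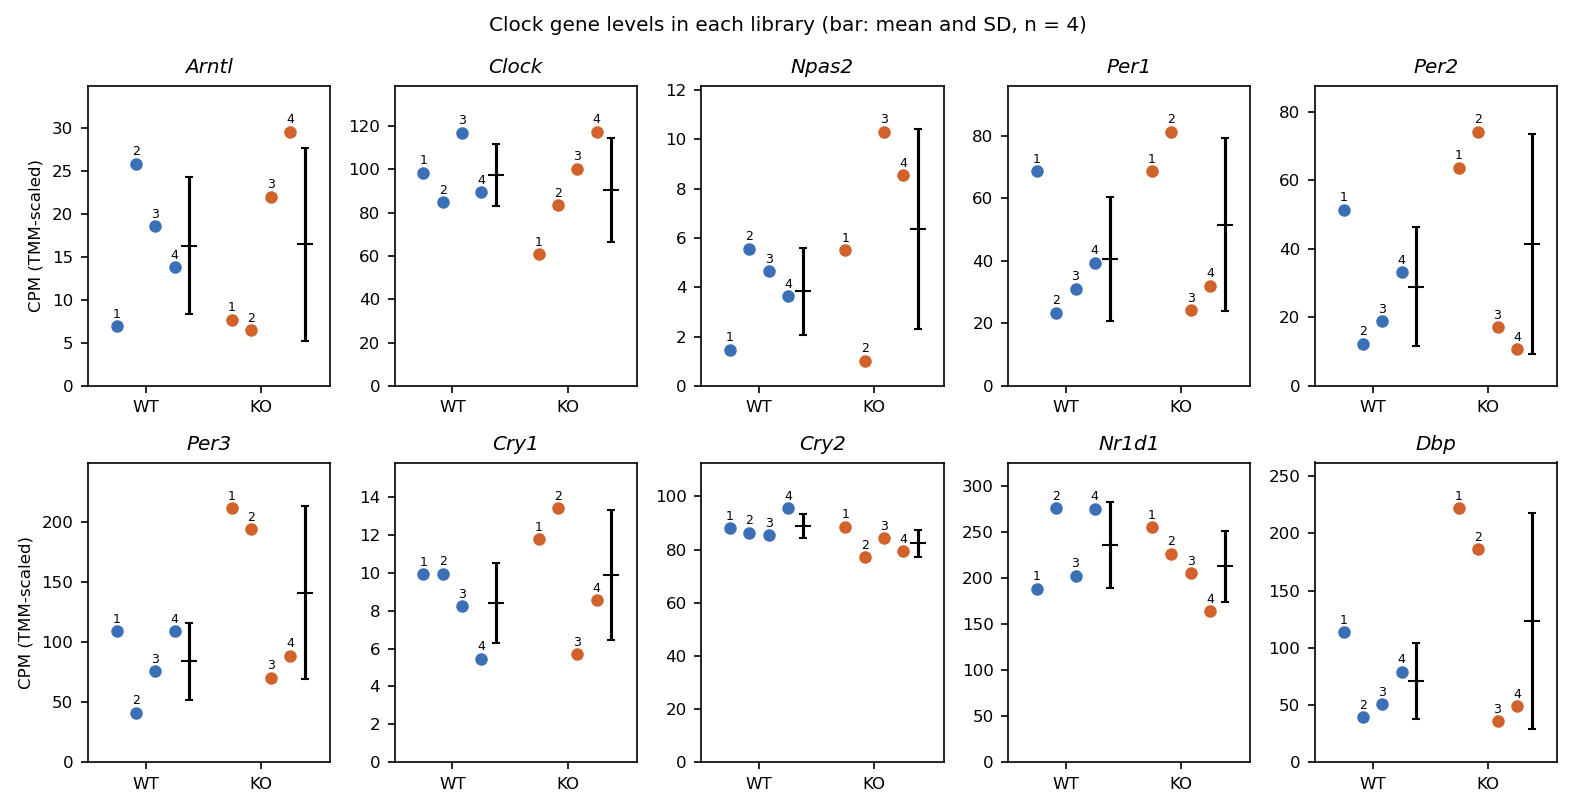
TMM-scaled CPM (vertical axis, from 0) of each clock gene in libraries labelled WT (blue) and KO (orange); numbers are replicates, and the black bar is the mean with SD of 4 libraries. Replicate 1 of WT and replicates 1 and 2 of KO are low in Arntl and high in Per1, Per2 and Dbp, and Cry2 stays between 77.2 and 95.6 CPM.

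The partners of ARNTL differed from it in size of variation. Npas2, the partner that can stand in for CLOCK, had 1.47, 5.57, 4.65 and 3.65 CPM in WT1 to WT4 and 5.52, 1.03, 10.3 and 8.56 CPM in KO1 to KO4. These levels rest on 3 to 29 reads per library, so that counting error is large. KO2 and WT1 were lowest, as for Arntl, while KO1 lay in the middle. Clock, the histone acetyltransferase partner whose transcript is only weakly rhythmic in most tissues, had 98.4, 84.8, 117 and 89.4 CPM in WT1 to WT4. In KO1 to KO4 it had 60.7, 83.4, 100.3 and 117 CPM. The highest Clock level was 1.93 times the lowest, against 4.54 times for Arntl.

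The 3 Period genes, which encode the scaffold of the repressor complex, were highest in KO1 and KO2, followed by WT1 for Per1 and Per2 and by WT1 and WT4 together for Per3. Per1, which also answers to light, stress hormone and cAMP signals, stood at 68.6, 23.5, 31.1 and 39.4 CPM in WT1 to WT4 and at 68.8, 81.4, 24.2 and 32.1 CPM in KO1 to KO4. Per2 stood at 51.4, 12.3, 18.9 and 33.2 CPM in WT1 to WT4 and at 63.6, 74.1, 17.1 and 10.7 CPM in KO1 to KO4. Per3, the member least needed for rhythm in mice, stood at 109, 41.4, 76.1 and 109 CPM in WT1 to WT4 and at 212, 194, 70.4 and 88.8 CPM in KO1 to KO4. For each of these genes KO1 and KO2 were high and KO3 and KO4 lower, and the ranges of the labels overlapped.

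The other repressors varied less. Cry1, the stronger repressor of the 2 cryptochromes, had 9.91, 9.95, 8.22 and 5.47 CPM in WT1 to WT4 and 11.8, 13.4, 5.69 and 8.56 CPM in KO1 to KO4, on 15 to 39 reads. Cry2 lay between 77.2 and 95.6 CPM, with its highest level 1.24 times its lowest. Nr1d1, the nuclear receptor that represses Arntl, had 188, 275, 202 and 275 CPM in WT1 to WT4 and 255, 226, 205 and 164 CPM in KO1 to KO4. Its order over the libraries was not that of the Period genes, with WT1 among its lower values.

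Some of these counts could include reads of a neighbour, since the libraries do not mark strand. In GENCODE M21, 263 of 3077 exonic bases of Nr1d1 are shared with Thra on the other strand, 539 of 2993 of Dbp with Sphk2, and 295 of 6320 of Cry2 with D930015M05Rik, all of which are in the count table. How reads in such stretches were counted, and with which annotation, is not stated in the labels or headers, so levels of these 3 members are uncertain.

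Spread within labels was compared with other genes of similar abundance, defined as a mean within 1 log2 unit. The within-label SD of log2 CPM was 1.05 for Dbp, larger than in 99.8% of 4293 such genes. It was 1.15 for Per2 (above 99.6% of similar genes), 0.73 for Per3 (99.3%), 0.75 for Per1 (99.0%), 0.92 for Arntl (98.3%) and 1.04 for Npas2 (96.6%). Clock, Nr1d1 and Cry1 were nearer the middle, above 86.7%, 78.7% and 76.5% of similar genes. Cry2 was among the steadiest, at an SD of 0.08 and above only 2.72% of similar genes. These shares are a description of 8 libraries.

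Per length of exon, the order of levels was Nr1d1, Dbp, Cry2, Per3, Per1, Clock, Per2, Cry1, Arntl and Npas2. Nr1d1 averaged 72.8 CPM per kilobase (53.3 to 89.5 over the 8 libraries), Dbp 32.4 (12.1 to 74.1) and Cry2 13.6 (12.2 to 15.1). Per3 averaged 11.7, Per1 8.19, Clock 6.84 and Per2 6.01 CPM per kilobase. Cry1, Arntl and Npas2 were lowest, at 2.73, 2.18 and 1.06 CPM per kilobase. The ranges of all 9 neighbouring genes in this order overlapped, and only Nr1d1 over Dbp held in 8 of 8 libraries. Lengths are exon unions of GENCODE M21, so absolute values depend on that annotation.

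Positive and negative arms were then related within each library. The level of Dbp per kilobase was 3.83 to 72.2 times that of Arntl: 41.0, 3.83, 6.86 and 14.4 times in WT1 to WT4, and 72.2, 71.8, 4.14 and 4.15 times in KO1 to KO4. The ratio of Per2 to Arntl per kilobase ran from 0.464 in KO4 to 14.6 in KO2, so that Per2 was above Arntl in some mice and below it in others. For Nr1d1 the ratio to Arntl ran from 13.6 in KO4 to 84.8 in KO2, and most of that range came from Arntl, since Nr1d1 itself varied only 1.68-fold. The mean log2 CPM of the 7 negative-arm and output genes minus that of the 3 positive-arm genes was 2.62, 0.69, 0.99 and 1.69 in WT1 to WT4. It was 2.68, 3.25, 0.40 and 0.36 in KO1 to KO4. The zero of this difference depends on gene length, so only its differences between libraries can be read. It averaged 1.5 ± 0.86 for the label WT and 1.67 ± 1.51 for the label KO (SD, n = 4), a difference of 0.17 that is smaller than the spread within either label; no test was made on this score.

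**Figure D2:**
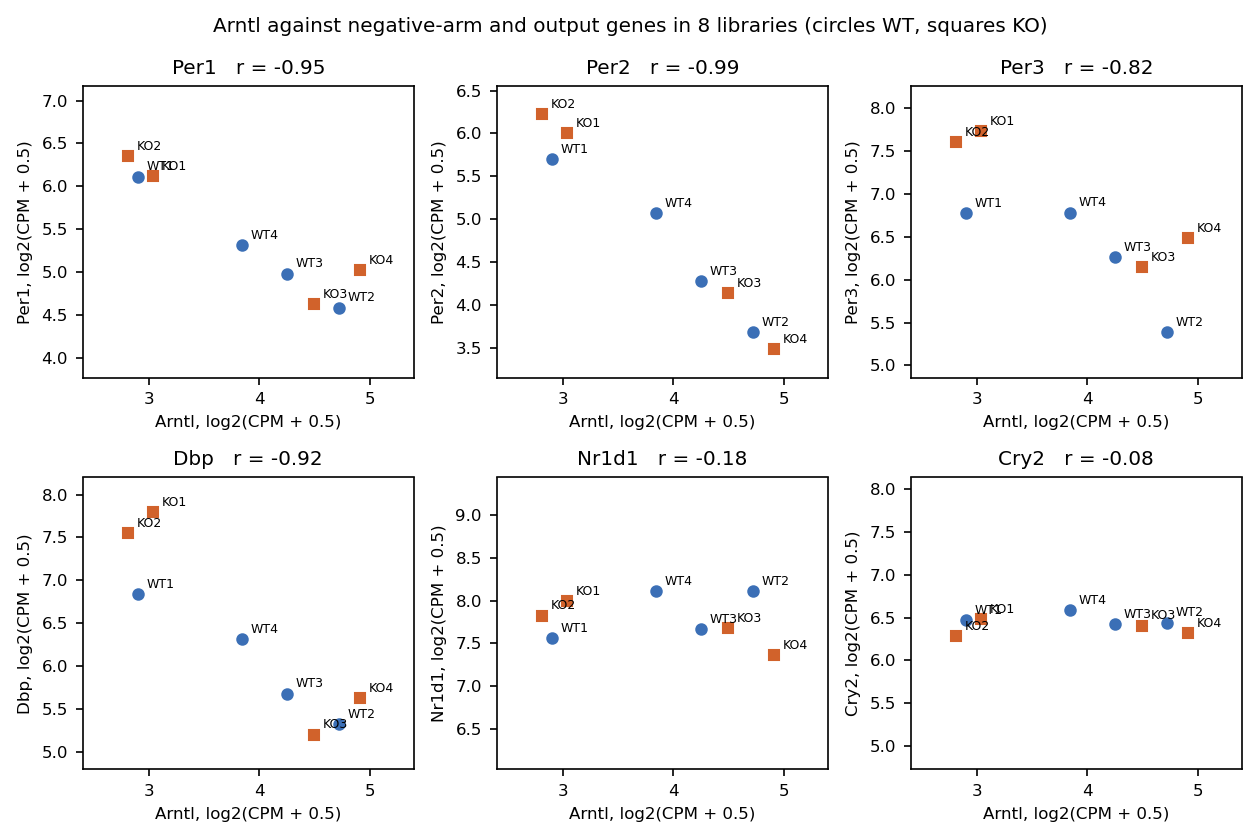
Log2(CPM + 0.5) of Arntl (horizontal) against that of 6 other clock genes (vertical, all spanning the same number of log2 units), with circles for WT and squares for KO libraries. Per1, Per2, Per3 and Dbp fall as Arntl rises (r from -0.82 to -0.99), whereas Nr1d1 (r = -0.18) and Cry2 (r = -0.08) show little slope.

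Of the 21 pairs made of 1 positive-arm gene and 1 negative-arm or output gene, 20 had a negative correlation over the 8 libraries, with a median r of -0.54. The pairs share genes and libraries, so they are not separate observations, and some r were near 0, such as -0.08 for Arntl with Cry2. As background, 51.1% of other tested genes had a negative r with Arntl, 2.69% had an r of -0.7 or lower and 3.11% an r of 0.7 or higher, and 49.2% had a negative r with Dbp. All 45 pairs of members were tested by exact two-sided permutation of the libraries, with Benjamini-Hochberg adjustment over the 45, on log2(CPM + 0.5). Past an adjusted p of 0.05 were 3 pairs across the arms, all with Arntl, and 6 pairs within the negative arm and output, which are all 6 pairs among Per1, Per2, Per3 and Dbp. A correlation as far from 0 as the weakest of these 9 (0.86) was found for 1.07% of all pairs of tested genes. With rank correlation in place of Pearson's r, 4 of the 45 pairs passed. Without WT2, WT3 or WT4, 5, 4 and 4 pairs passed.

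Arntl and Per2 were the closest pair, with r = -0.99 (exact permutation p = 0.00012, adjusted p = 0.0056) and rho = -0.98 (exact permutation p = 0.0004, adjusted p = 0.018). Without WT1 and KO2, the libraries farthest from the Arntl median, r was -0.996 over the other 6. Arntl with Per1 had r = -0.95 (exact permutation p = 0.0019, adjusted p = 0.012) and Arntl with Dbp r = -0.92 (exact permutation p = 0.0025, adjusted p = 0.014). Their rho was -0.83 in both pairs (exact permutation p = 0.015, adjusted p = 0.077). Without the same libraries r was -0.89 and -0.93, so neither r rests on them alone, although KO1, also low in Arntl, remained. With a library left out, r ran from -0.995 to -0.93 for Per1 and from -0.95 to -0.90 for Dbp. Their exact permutation adjusted p then reached 0.065 and 0.079, so neither call held in every such fit. The relation of Arntl to Per3 missed the threshold, with r = -0.82 and rho = -0.74 (exact permutation p = 0.012 and 0.046, adjusted p = 0.054 and 0.15). That call is near the threshold, and Pearson's r passed it without WT1 and without KO4 (exact permutation adjusted p = 0.044 and 0.027).

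With each value taken as its difference from the mean of its label, r was -0.99 for Arntl with Per2, -0.96 with Per1, -0.94 with Dbp and -0.89 with Per3. With each value taken as its difference from a fit on the muscle marker sum, these were -0.99, -0.98, -0.95 and -0.88. Arntl with Per3 passed the threshold in both (approximate permutation adjusted p = 0.028 and 0.043). The permutations exchanged all libraries freely, which differences from a label mean or from a fit do not strictly allow. Such p-values are therefore approximate and cannot be set against those of the plain values. The muscle sum was high in KO1 and KO2, the highest libraries for Dbp, and in KO4, where Dbp had 48.8 CPM. It was 472 CPM in WT1, where Dbp had 114 CPM. The liver sum was high in WT1, WT4 and KO2, and the r of its 8 genes with Arntl ran from -0.77 (Ttr) to -0.23 (Serpina1c); its part in the pattern was not tested. The labels name no batch, and the genes of a pair share their libraries, with all that sets a library apart.

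Within the repressor and output genes, Per1 with Dbp had r = 0.96 and rho = 0.93 (exact permutation p = 0.00035 and 0.0022, adjusted p = 0.0074 and 0.025), and r = 0.97 without KO1 and KO2, the farthest from the Per1 median. Per3 with Dbp had r = 0.93 and rho = 0.93 (exact permutation p = 0.0005 and 0.0022, adjusted p = 0.0074 and 0.025), and 0.95 without KO1 and WT2. Per1 with Per3 had r = 0.89 and rho = 0.95 (exact permutation adjusted p = 0.010 and 0.025), and 0.77 without KO1 and KO2. Per2 had r = 0.94 with Per1, 0.94 with Dbp and 0.86 with Per3 (exact permutation adjusted p = 0.012, 0.012 and 0.020), and without KO1 and KO2 these were 0.86, 0.89 and 0.67. By rank these 3 pairs of Per2 missed the threshold (rho = 0.86, 0.88 and 0.81, exact permutation adjusted p = 0.069, 0.065 and 0.098).

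The other pairs were weaker or missed the threshold. Npas2 with Arntl had r = 0.80 and rho = 0.86 (exact permutation adjusted p = 0.068 and 0.069), and r was 0.48 without WT1 and KO2, so the size of this relation rests on them. It passed without KO1 (r = 0.95, exact permutation adjusted p = 0.020). With values minus the label mean r was 0.85, and minus the fit on muscle markers 0.83 (approximate permutation adjusted p = 0.012 and 0.041). Of the repressors, Npas2 was farthest from Per1 and Per2, at r = -0.78 and -0.75 (exact permutation adjusted p = 0.091 and 0.11). It had r = -0.65 with Dbp, -0.49 with Per3 and -0.10 with Nr1d1 (exact permutation adjusted p = 0.23, 0.37 and 0.94). Npas2 with Dbp passed without KO1 (r = -0.95, exact permutation adjusted p = 0.013). With values minus the label mean its r was -0.77 (approximate permutation adjusted p = 0.047). Clock had r = -0.69 with Dbp and 0.56 with Arntl, and Arntl had r = -0.54 with Cry1 (exact permutation adjusted p = 0.16, 0.33 and 0.33). Nr1d1 stood apart from the Period genes, with r = 0.02 to Per1, 0.26 to Per2 and 0.03 to Per3. Minus the fit on muscle markers these were 0.25, 0.40 and 0.38. Nr1d1 had r = -0.18 to Arntl and 0.22 to Dbp (exact permutation adjusted p = 0.86 and 0.82). Without WT1 and KO2 its r to Arntl was -0.52. Its r to Dbp was 0.51 minus the fit on muscle markers and 0.50 without WT2. Cry2 was nearer 0 with both, at r = -0.08 to Arntl and 0.002 to Dbp. The farthest r of Nr1d1 was with Clock, at -0.70 (exact permutation adjusted p = 0.14), and no pair with Nr1d1 or a cryptochrome passed. A missed threshold with 8 libraries does not show that such genes vary independently.

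**Figure D3:**
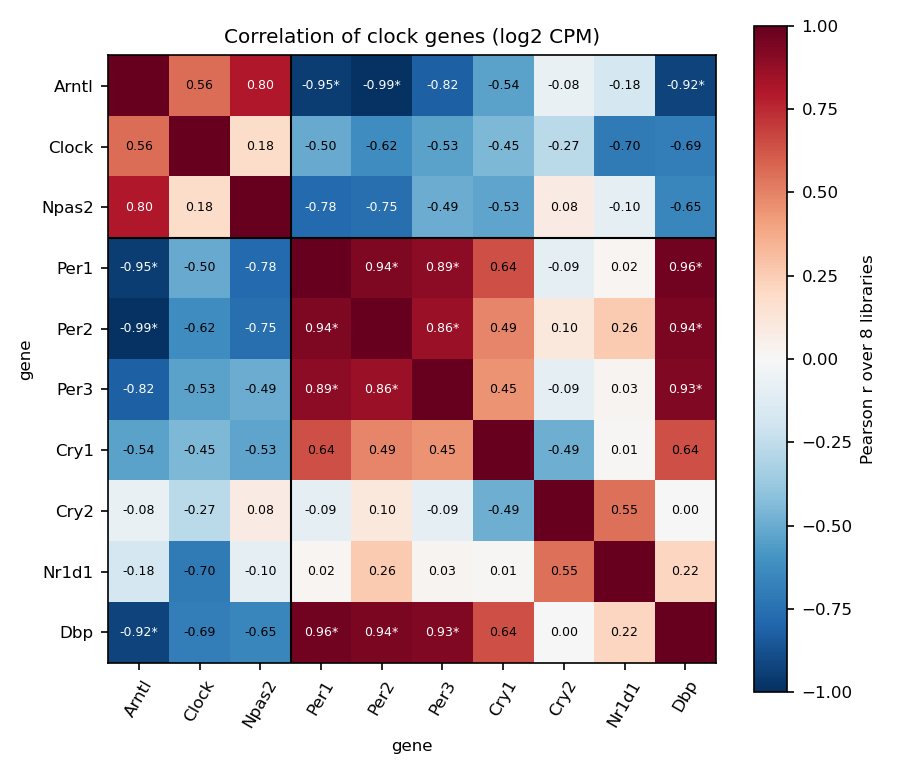
Pearson r of log2(CPM + 0.5) over 8 libraries for every pair of clock genes; red is positive, blue negative, an asterisk marks an adjusted permutation p under 0.05, and black lines divide the positive arm from the rest. The 6 pairs among Per1, Per2, Per3 and Dbp are positive (0.86 to 0.96), and Arntl is negative with each of them.

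Between the labels, none of the 10 members passed the threshold. Values were higher in libraries labelled KO for 7 members and lower for Clock, Cry2 and Nr1d1, and the ranges of the labels overlapped for all 10. In edgeR's quasi-likelihood test 0 of 14556 genes passed an adjusted p of 0.05, a background of 0%. An unadjusted p under 0.05 was found for 653 genes, or 4.49%, and for 0 of the 10 members. Labels that do not overlap were found for 425 genes, or 2.92%. DESeq2 called 51 genes (0.301%) and the likelihood ratio test 34 (0.234%), with 0 members in either.

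Dbp had 70.8 ± 33.2 CPM with the label WT and 123 ± 94.5 CPM with the label KO (SD, n = 4 each), a log2 fold change of 0.80 ± 0.69 (SE) whose 95% interval runs from -0.88 to 2.47. With a library left out the value ran from 0.36 without KO1 to 1.12 without WT1. Per3 had 84.0 ± 32.4 and 141 ± 71.8 CPM and a log2 fold change of 0.75 ± 0.46 (SE), with an interval from -0.35 to 1.85, and ran from 0.49 without KO1 to 0.97 without KO3. Npas2 had 0.72 ± 0.55, Per2 0.51 ± 0.74, Per1 0.34 ± 0.49 and Cry1 0.23 ± 0.29 (log2 fold change and SE). With a library left out, Per2 ran from 0.06 without KO2 to 0.94 without WT1, and Per1 from 0.03 to 0.72 without the same libraries. Cry1 ran from 0.05 without KO2 to 0.42 without KO3, and Npas2 from 0.39 without KO3 to 1.08 without KO2. Arntl had 0.02 ± 0.57, Clock -0.11 ± 0.18, Cry2 -0.11 ± 0.11 and Nr1d1 -0.15 ± 0.17. The adjusted p was 0.998 for each of the 10 (edgeR quasi-likelihood test). The intervals of Dbp, Per2, Npas2, Per3, Per1 and Arntl reach past 1 log2 unit on the side of KO. Changes of that size are thus not excluded at this spread, and the interval of Arntl runs from -1.31 to 1.34. The interval of Cry2, from -0.34 to 0.12, is the narrowest. With the muscle marker sum as a covariate the sign of Dbp, Per1, Per2, Cry1 and Nr1d1 turned, to -0.41, -0.47, -0.20, -0.48 and 0.07. With that covariate Per3 was 0.12, Npas2 1.24, Arntl 0.25, Clock -0.16 and Cry2 -0.04, and none of the 10 passed. Unadjusted p in that fit ran from 0.16 (Npas2) to 0.89 (Per2) in the quasi-likelihood test. All 22 tested muscle genes had higher values with the label KO, 21 at an unadjusted p under 0.05, against 4.49% of all tested genes. The muscle sum thus goes largely with the label, and that fit cannot separate them well.

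**Figure D4:**
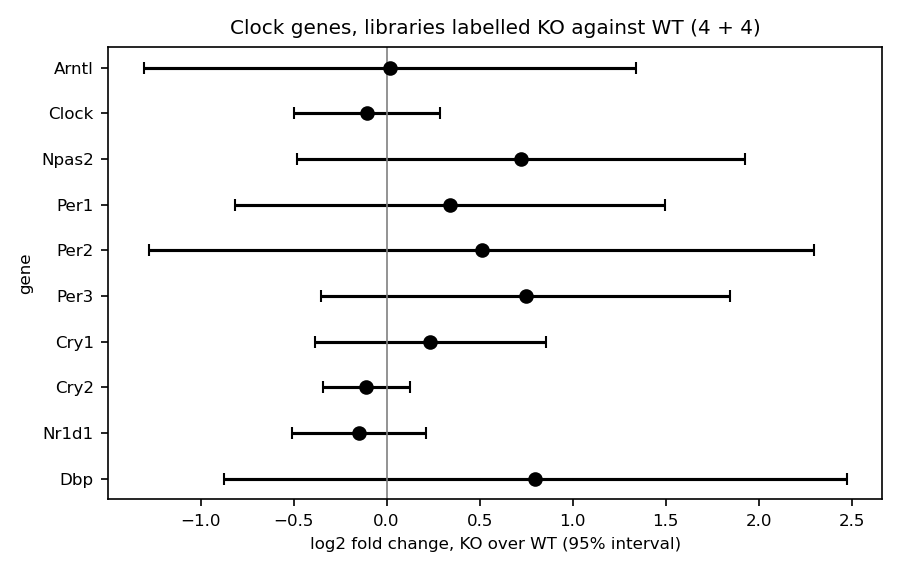
Log2 fold change of each clock gene, libraries labelled KO over WT (edgeR quasi-likelihood fit), as points with 95% intervals on the horizontal axis. All 10 intervals include 0, and they are widest for Per2, Dbp and Arntl.

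The authors' deposited table calls 2 of the members, both higher with the label KO. In the authors' deposited table Dbp has a log2 fold change of 0.79 with an adjusted p of 0.0095, and Per3 0.74 with an adjusted p of 0.019. That table calls 436 of 18022 genes, or 2.42%, and 1.43% as higher. In both genes KO1 and KO2 are above all libraries labelled WT. For Per3, KO3 and KO4 lie within the WT range, and for Dbp KO4 lies within it and KO3, at 36.3 CPM, below its lowest value of 39.4 CPM.

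Other clock genes were read from 3 lists. The first held the second loop, in which REV-ERB and ROR receptors compete at Arntl, with the PAR-bZIP relatives of DBP and the DEC repressors. This list also held Nfil3, Arntl2, Timeless, Tipin and Ciart. Of its 13 genes 11 were tested, 0 passed and 10 had log2 fold changes above 0. The list's median was 0.16, against 0.00 over all tested genes. Tef and Hlf, PAR-bZIP factors that bind the D-box like DBP, had 0.59 ± 0.45 and 0.54 ± 0.57, Bhlhe41 (DEC2), a repressor at E-boxes, 0.46 ± 0.48, and Rora 0.35 ± 0.18 (log2 fold change and SE, adjusted p = 0.998 for each in edgeR's quasi-likelihood test). With muscle markers as a covariate they were 0.06, -0.25, -0.06 and 0.26 in that order. Over the libraries 6 of the 11 had an r of at least 0.7 with Dbp, where 2.98% of other tested genes did; they were Nr1d2, Tef, Hlf, Bhlhe40, Bhlhe41 and Timeless.

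Tef had 257.7, 120.2, 143 and 216 CPM in WT1 to WT4 and 427, 387, 151 and 147 CPM in KO1 to KO4. Nr1d2 (REV-ERB beta), the near relative of Nr1d1 and named after its values were seen, had 131, 46.6, 79.7 and 87.5 CPM in WT1 to WT4 and 116, 135, 53.0 and 75.6 CPM in KO1 to KO4. It was thus high in WT1, KO1 and KO2 like the Period genes, which Nr1d1 was not. Ciart, an E-box-driven repressor of the loop that the table names Gm129, was under the count filter, with read counts of 13, 1, 4 and 4 under the label WT, replicates in order, and of 16, 18, 2 and 5 under KO.

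**Figure D5:**
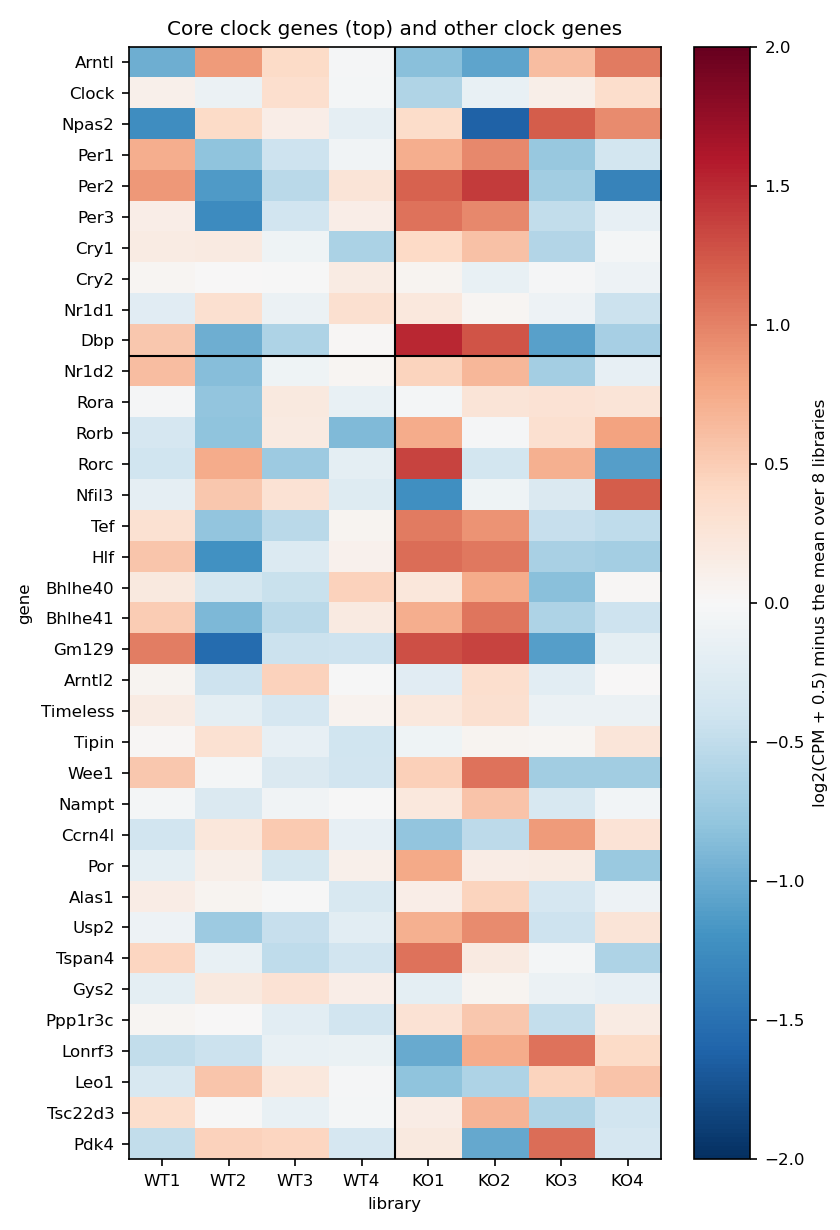
Log2(CPM + 0.5) minus the mean over 8 libraries (colour, red above and blue below) for the 10 core clock genes, above the black line, and for all genes in the table from the second-loop and output lists, with libraries in columns. WT1, KO1 and KO2 are red for Per1, Per2, Tef, Hlf and Bhlhe41 and blue for Arntl, Ccrn4l and Leo1.

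Genes on the list of kinases and turnover factors were steadier. It holds genes whose products phosphorylate PER and CRY or mark them for destruction. It also holds others that do neither, such as Usp2, Wdr5, Ppp1ca and Ppp1cc. Of 20 genes 19 were tested, 0 passed, 12 had positive values and the median log2 fold change was 0.03. Csnk1d and Csnk1e, the casein kinases that phosphorylate PER, ranged from 94.5 to 123 and from 49.7 to 64.5 CPM. Usp2, a deubiquitinase that is itself rhythmic, had the smallest p of the list, with a log2 fold change of 0.85 ± 0.28 (edgeR quasi-likelihood test, adjusted p = 0.998), and 0.23 with muscle markers as a covariate. Its levels were 10.6, 6.77, 8.22 and 9.85 CPM in WT1 to WT4 and 19.1, 22.7, 8.53 and 13.9 CPM in KO1 to KO4. Wdr5, Ppp1ca and Ppp1cc had 0.23 ± 0.19, -0.13 ± 0.13 and 0.13 ± 0.13. Of the 19, only Usp2 had an r of 0.7 or more with Dbp.

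Clock-controlled outputs moved in both directions with Dbp over the libraries. Of 15 genes, which count Usp2, Bhlhe41 and Ciart again, 13 were tested, 0 passed between the labels, 10 had positive values and the median log2 fold change was 0.23. Ppp1r3c, a glycogen-targeting subunit, had 0.31 ± 0.21, Nampt, the enzyme of NAD salvage, 0.23 ± 0.17 and Gys2, liver-type glycogen synthase, -0.23 ± 0.21 (SE). An r of at least 0.7 with Dbp was found for 6 of the 13 and an r of -0.7 or lower for 2, against 2.98% and 3.32% of other tested genes. The 2 were Leo1 and Ccrn4l, the gene now called Noct, both named after their values were seen. Ccrn4l had 33.4, 51.3, 63.3 and 39.0 CPM in WT1 to WT4 and 25.0, 30.2, 79.3 and 53.1 CPM in KO1 to KO4, with its lowest levels in KO1, KO2 and WT1, like Arntl.

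Among 11486 tested genes with at least 10 CPM on average, members left out, the 5 with the highest Pearson r to Dbp over the 8 libraries were Tef (0.98), Gm6382 (0.97), Hlf (0.97), Gm15241 (0.97) and Bhlhe41 (0.96). The 5 nearest to Arntl were Med24 (0.97), a Mediator subunit, Pla2g15 (0.96), a lysosomal phospholipase, Dtx4 (0.96), Leo1 (0.96), a subunit of the PAF1 elongation complex, and Dapk1 (0.95). With 8 points searched over so many genes, such values are a ranking and not a test. Tef ranged from 120.2 CPM in WT2 to 427 CPM in KO1, Dtx4 from 16.1 CPM in KO2 to 91.3 CPM in KO4, and Med24 only from 15.4 to 23.9 CPM.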

How the data were processed

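Whole-number counts for each gene in each library were deposited by the authors, unnormalized. A second table that the authors deposited gives the log2 fold change, log2 mean level, p-value and adjusted p-value of KO against WT, with headers in edgeR's style. FastQC, Bowtie2, edgeR and mm9 are named in the submitters' processing notes without role or version. Per the labels' protocols, RNA was poly(A)-selected, and the library kit leaves strand unmarked. Columns were matched to samples by mouse label.

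The whole table was fitted with edgeR 4.0.16 (R 4.3.3): TMM scaling, filterByExpr, a robust quasi-likelihood F test with the label as the only term, and Benjamini-Hochberg adjustment at 0.05. The common dispersion was 0.0337. CPM use TMM-scaled totals of tested genes. Each standard error was derived from the fold change and its F statistic. The fit and the permutation test were checked on simulated data. The edgeR p-values set the difference between labels against the variation between mice. The permutation p-values test the pairing of the genes of a pair over the libraries. Alternatives used DESeq2 1.42.0, limma 3.58.1 and sva 3.50.0.

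Named were the 10 members, from 3 clock lists the 4 genes with the smallest p, the genes nearest to Dbp and Arntl, and 14 pairs plus any past the threshold. The members and lists were chosen with earlier results of these data known.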

Additional observations from a re-analysis of the deposited data

How the results depend on the processing

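No member passed in any of 21 alternative fits, while the count over all genes, 0, was 51 with DESeq2, 34 with the likelihood ratio test, 2 with 1 surrogate variable, and from 0 to 50 with each library left out (50 without KO3). Of 419 alternative fold changes of 21 genes, 402 kept their sign and 17 turned. Arntl turned with limma-voom (-0.014) and with the replicate number as a block (-0.062), and ran from -0.42 to 0.32 with a library left out; Clock turned without KO1 (0.043), in a range from -0.26. With muscle markers as a covariate Per1 was -0.47, Per2 -0.20, Cry1 -0.48, Nr1d1 0.074, Dbp -0.41, Bhlhe41 -0.062, Hlf -0.25, Ppp1ca 0.015, Ppp1r3c -0.24 and Nampt -0.050. The muscle sum goes largely with the label, and the cause of these turns was not tested. The block called 0 genes, as did the fit without it, and the numbers did not pair the samples (same-numbered deviations correlated at -0.14 to -0.29). Pairs past the threshold, 9, were 4 by rank and 4 to 13 with a library left out, and with 7 libraries the smallest p is larger. They were 15 with values minus the label mean, where the permutation p is only approximate. Arntl with Nr1d1 and Npas2 with Nr1d1 ran from -0.46 to 0.20 and from -0.34 to 0.21 with a library left out, turning without KO4 (0.20 and 0.21). The arm difference ran from -0.35 to 0.61. Npas2 did not reach 10 reads in every library, so the fit with that filter gave it no value. Depth limits Npas2, Cry1 and Ciart most.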

Other observations

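A list of genes that answer to glucocorticoid hormone, as Per1 is known to do, was read beside the clock. Fkbp5, a chaperone of the glucocorticoid receptor, had 64.6, 37.4, 48.6 and 43.0 CPM in WT1 to WT4 and 80.2, 109, 33.8 and 40.3 CPM in KO1 to KO4. Its 3 highest libraries were KO2, KO1 and WT1, those highest in Per1 and Per2. Tsc22d3 (GILZ) was highest in KO2 at 192 CPM, in WT1 at 153 CPM and in KO1 at 134 CPM, and lowest in KO3 at 79.3 CPM. Of the 8 genes of the list, 3 had an r of at least 0.7 with Dbp and 1 an r of -0.7 or lower, against 2.98% and 3.32% of other tested genes. The 3 were Fkbp5 (0.93), Mt2 (0.87) and Tsc22d3 (0.80). Cdkn1a went the other way at -0.75, with its lowest level in KO1, as did Pdk4 at -0.62, with its lowest in KO2. Zbtb16, Sgk1 and Mt1 lay from 0.50 to 0.60. Between the labels 0 of the 8 had an unadjusted p under 0.05 (edgeR quasi-likelihood test). Fkbp5 and Tsc22d3 were chosen for description by library after their values were seen.

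Immediate early genes, which respond quickly to many stimuli, as Per1 does in many cells, were read in the same way. Their summed level was 596 CPM in WT2, where Per1 was lowest, 385 CPM in WT1 and between 271 and 358 CPM in the other 6 libraries. All 11 tested members had negative log2 fold changes (median -0.39), as did 7266 of all 14556 tested genes. Of the 11, 2 had an unadjusted p under 0.05, against 4.49% of tested genes, and 0 an adjusted one (edgeR quasi-likelihood test). Fos, Jun, Junb, Egr1, Ier2, Dusp1, Btg2, Zfp36 and Nr4a1 were each highest in WT2, while Atf3 was highest in KO2 and Ier3 in WT1. These genes share their libraries, so their signs are not separate observations. The part of WT2 in the shared sign was not tested. Of these 11, 0 had an r of 0.7 or more, or of -0.7 or lower, with Dbp, where 2.98% and 3.32% of other tested genes did.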
